A study of Mus musculus with 12 samples.

Results

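Of the 39171 genes in the deposited kidney count table, 8 are described here for their part in acid-base and ammonia handling by the proximal tubule: Slc9a3, Slc4a4, Car2, Car4, Car14, Glud1, Slc38a3 and Atp1b1. They were taken as the rows whose symbol equals 1 of these names, and each name matched 1 row. All 8 passed the filter on low counts, as did 15589 genes in all. The kidneys came from 12 male mice of up to 3 months, with 1 RNA-seq library per mouse. Wild-type mice gave 4 libraries. The other 8 came from mice homozygous for a knock-in of the GNE M743T allele, 4 of which the submitters class as healthy and 4 as sick, so healthy and sick mice share 1 genotype and differ by phenotype. No treatment is named for any group.

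The proximal tubule reclaims filtered bicarbonate by secreting protons into the lumen, where they meet bicarbonate and yield carbon dioxide and water, and by passing bicarbonate on to the blood across the basolateral membrane. Carbonic anhydrases on the membrane and in the cytosol speed the exchange between carbon dioxide and bicarbonate. The same cells take up glutamine and break it down to ammonium and new bicarbonate, a route that the kidney raises in acidosis, and the sodium pump supplies the sodium gradient on which these steps run. Several of the 8 genes are also used outside the proximal tubule, Car2 in intercalated cells and Atp1b1 along the whole nephron.

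Wild-type libraries held 13189478 to 19493856 counts, those of healthy mice 18191087 to 21925419 and those of sick mice 10605546 to 22633684. CPM here are counts scaled by the TMM-adjusted library size, and a mean ± SD is over 4 mice. Sick libraries had higher TMM scaling factors (1.23 to 1.39) than the other 8 (0.804 to 0.933), and a lower share of counts from mitochondrially encoded genes, 5.29% to 9.06% against 11.1% to 16.5%. With scaling by library totals alone the median log2 fold change of all genes tested moved from 0.02 to 0.61 for sick against wild-type mice and from 0.05 to 0.63 for sick against healthy mice. The levels of the 8 genes are therefore read relative to the other genes, and the results that turn with this scaling are named. Wild-type mouse 2 was the lowest of the 12 libraries on the second principal component, at -84.7 against -38.9 to 28.4 in the other 11, and held no count of the androgen-regulated tubule gene Kap, where the other wild-type mice had 24631 to 29317 CPM. Its levels of Slc9a3, Slc4a4 and Slc38a3 lay in the sick range, and results on these genes against wild-type are given with and without it.

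In sick kidneys 6 of the 8 genes fell against wild-type (Slc9a3, Slc4a4, Car2, Car4, Car14 and Atp1b1) and 0 rose, by edgeR's quasi-likelihood test at an adjusted p of 0.05. Whole kidney RNA was measured, so fewer cells of a type and less RNA per cell cannot be told apart. Against healthy mice of the same genotype 6 fell (Slc9a3, Slc4a4, Car2, Car4, Car14 and Glud1) and 0 rose. Among all genes tested, 25.0% fell and 25.9% rose in sick against wild-type mice, and 21.9% fell and 24.5% rose in sick against healthy mice. The 2 comparisons share the sick libraries. The median log2 fold change of the 8 genes was -0.96 against wild-type and -1.13 against healthy mice, where that of all genes tested was 0.02 and 0.05. Scaled by library totals alone, 3 of the 8 fell and 1 rose against wild-type, and 4 fell and 1 rose against healthy mice. In 3 genes (Car4, Car14 and Atp1b1) all sick mice were below all wild-type mice, as in 20.6% of all genes tested, and in 5 (Slc9a3, Slc4a4, Car4, Car14 and Glud1) all sick were below all healthy mice, as in 23.2%. Without wild-type mouse 2 the first count was 5, with Slc9a3 and Slc4a4 added (26.3% of all genes tested), and all sick mice were above the other wild-type mice in 1, Slc38a3 (27.4%). Without sick mouse 3 it was also 5, with Car2 and Glud1 added (26.1%). In healthy against wild-type mice edgeR called 0 of the 8, where 0.314% of all genes tested were called. There 0 of the 8 also had an unadjusted p under 0.05 (4.49% of all genes had), and DESeq2 and limma-voom called 0.

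**Figure D1:**
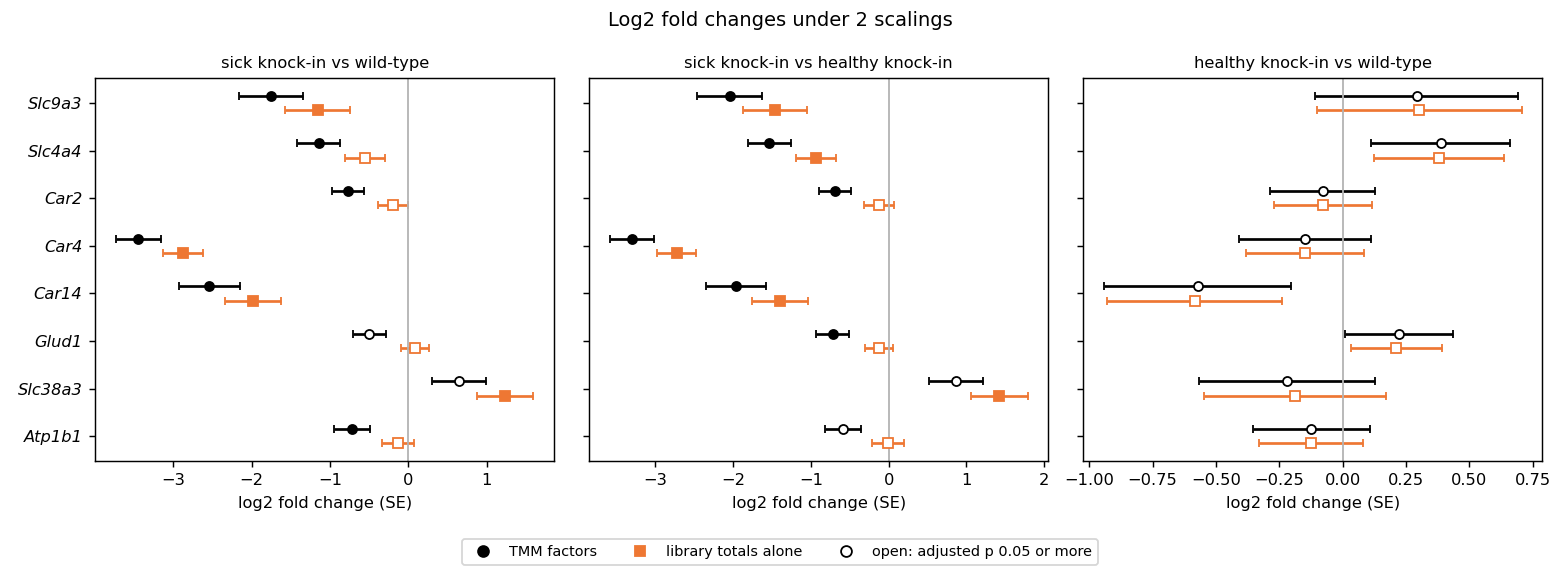
Log2 fold change of each of the 8 genes in the 3 comparisons, with bars for the SE of the edgeR fit, under TMM scaling (black circles) and library totals alone (orange squares), filled where the adjusted p was under 0.05. With TMM scaling Car4 lies farthest below 0 in both comparisons of sick mice, at -3.44 and -3.29, and Slc38a3 is the only gene above 0 there, while all points of healthy against wild-type mice are open.

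Levels per kilobase of exon allow the genes to be ordered within a group. In wild-type kidney Atp1b1 was highest, at 799 CPM per kb. Glud1 (139), Car2 (126), Car4 (114), Slc4a4 (111) and Car14 (50.4) followed, each overlapping the next in its 4 libraries. The overlaps of Slc4a4 with Car4 and Car14 rested on wild-type mouse 2, where Slc4a4 was 59.4. The other wild-type mice had 115 to 138 CPM per kb of Slc4a4, 102 to 110 of Car4 and 35.2 to 71.4 of Car14. Slc9a3 (11.6) and Slc38a3 (11.3) were lowest and overlapped only through wild-type mouse 2, which had 2.88 and 15.1. In the other wild-type mice Slc9a3 was 14.2 to 15.1 and Slc38a3 8.65 to 11.5 CPM per kb. Healthy mice again had Atp1b1 on top, at 733 CPM per kb, and Slc9a3 (14.2) and Slc38a3 (9.74) at the foot, with Car14 (33.9) apart from the genes on either side of it. In sick kidney Car4 (10.5), Car14 (8.75) and Slc9a3 (3.44) lay below Slc38a3 (17.8) in CPM per kb, although the libraries of Slc38a3, Car4, Car14 and Slc9a3 overlapped from each to the next.

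**Figure D2:**
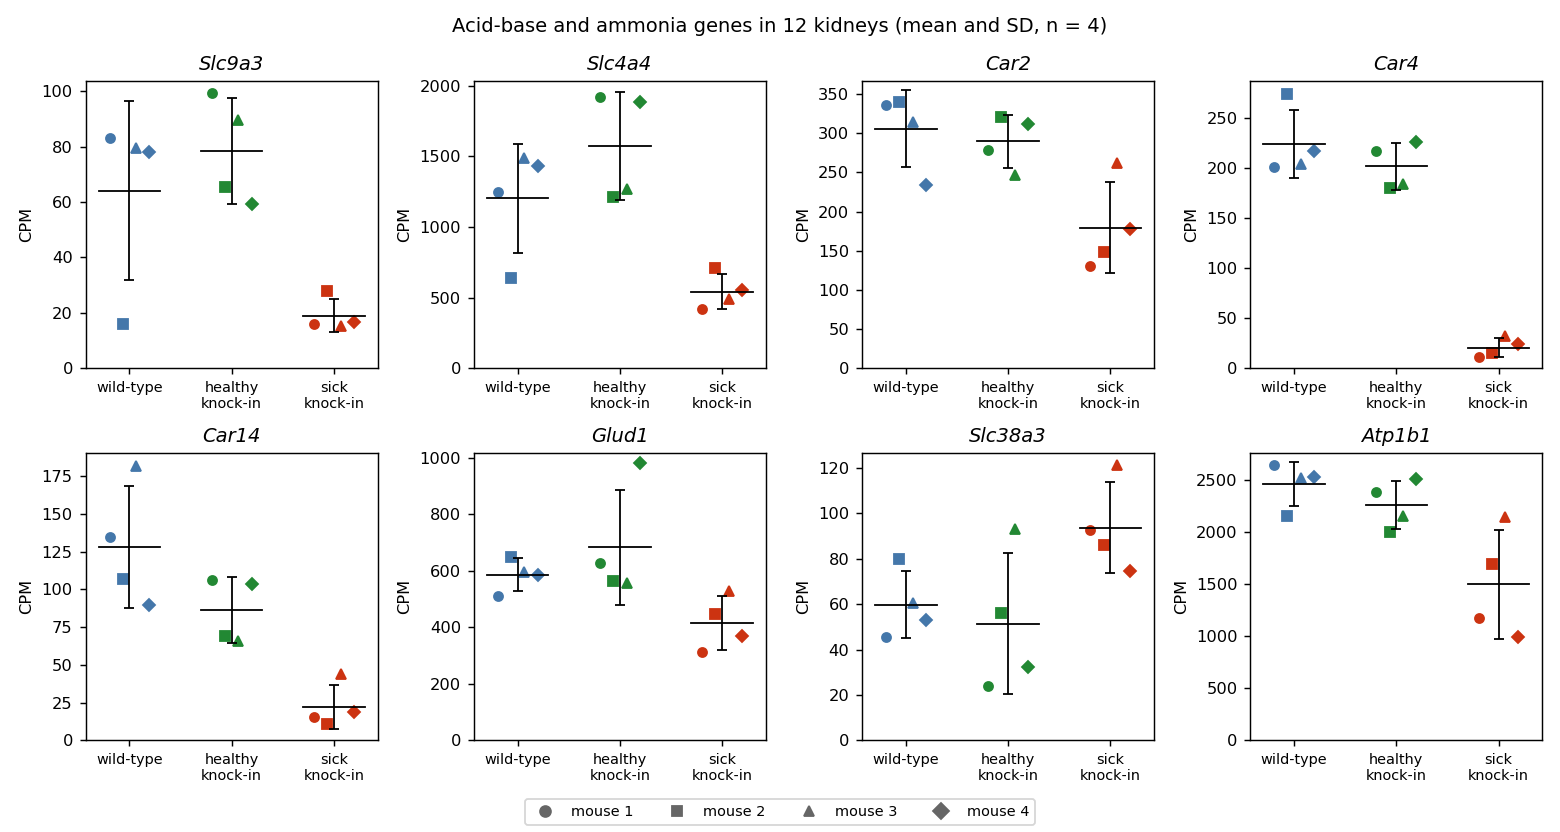
CPM of each of the 8 genes in the 12 libraries on linear axes from 0, 1 point per mouse, with a line at the mean of each group of 4 and a bar for the SD. The sick points of Car4 and Car14 lie under all other points, and for Slc9a3 and Slc4a4 wild-type mouse 2 lies among the sick mice.

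Both sodium-coupled transporters of bicarbonate reclaim fell in sick kidney. Slc9a3 (ENSMUSG00000036123, chr13:74121457-74169442, plus strand, GRCm38) encodes NHE3, the exchanger of the apical membrane that trades luminal sodium for a proton. Its level was 83.0, 15.9, 79.5 and 78.0 CPM in wild-type mice 1 to 4, 99.3, 65.3, 89.7 and 59.3 in healthy mice, and 16.1, 27.8, 15.3 and 16.6 in sick mice. All 4 sick mice were below all 4 healthy mice, and they overlapped wild-type only through wild-type mouse 2. The fall was 3.37-fold against wild-type (log2 fold change -1.75 ± 0.41 SE, edgeR adjusted p = 0.00346) and 4.12-fold against healthy mice (-2.04 ± 0.42, edgeR adjusted p = 0.00154). Without wild-type mouse 2 the log2 fold change of Slc9a3 against wild-type was -2.08 (edgeR adjusted p = 3.05e-05).

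Slc4a4 (ENSMUSG00000060961, chr5:88886818-89239653, plus strand) encodes NBCe1, the sodium bicarbonate cotransporter that carries bicarbonate out across the basolateral membrane. Its level was 1249, 642, 1492 and 1429.9 CPM in wild-type mice, 1923, 1215, 1269.9 and 1886 in healthy mice, and 419, 709, 494 and 554 in sick mice. The sick mice lay below all healthy mice, and wild-type mouse 2 again fell inside the sick range. Slc4a4 fell 2.21-fold against wild-type (-1.15 ± 0.28, edgeR adjusted p = 0.00403) and 2.89-fold against healthy mice (-1.53 ± 0.28, edgeR adjusted p = 0.000736). Without wild-type mouse 2 the first value was -1.36 (edgeR adjusted p = 0.000410). Scaled by library totals alone it was -0.55 and no longer called against wild-type (edgeR adjusted p = 0.0758). The count of Slc4a4 per kb over that of Slc9a3 within a library, which needs no scaling, was 14.9 ± 2.10 in sick, 11.8 ± 5.94 in wild-type and 10.7 ± 3.85 in healthy mice. The groups overlapped (two-sided exact permutation test, p = 0.200 against wild-type and 0.0857 against healthy mice, 0.277 and 0.14 after adjustment over 18 ratio tests), each time through 1 mouse. Wild-type mouse 2 had a ratio of 20.6, where the other wild-type mice had 7.66 to 9.55 and sick mice 12.96 to 16.97. Healthy mouse 4 had 16.2, where the other healthy mice had 7.21 to 9.85. The ratio was 1.36-fold higher in sick than in wild-type mice, and 1.68-fold with no overlap without wild-type mouse 2. Against healthy mice it was 1.45-fold higher, and 1.69-fold with no overlap without healthy mouse 4. As these are the mice that made the overlap, its loss follows from leaving them out. With any other single library left out the groups still overlapped.

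The apical exchanger and both membrane carbonic anhydrases were the members with the largest falls, and their promoters are shown for their base composition and for motifs that members might share. The 250 bases before the start are from the RefSeq table of GRCm38.p6, for chr13:74121163-74121412 (plus strand, Slc9a3), chr11:84957504-84957753 (plus strand, Car4) and chr3:95904686-95904935 (minus strand, Car14). Capitals mark matches on either strand to GGGCGG (a GC box), CACGTG (an E box), TATAAA (the TATA box), CCAAT (bound by NF-Y), GTTAAT (part of an HNF1 site) or CAAAGTCC (an HNF4 site), and no 2 matches shown overlap.
Slc9a3: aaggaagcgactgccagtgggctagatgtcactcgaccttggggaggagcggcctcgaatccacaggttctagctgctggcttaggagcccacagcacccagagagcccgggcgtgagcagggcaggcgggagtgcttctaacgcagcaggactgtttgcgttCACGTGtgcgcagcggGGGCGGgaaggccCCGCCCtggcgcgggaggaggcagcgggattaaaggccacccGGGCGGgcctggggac
Car4: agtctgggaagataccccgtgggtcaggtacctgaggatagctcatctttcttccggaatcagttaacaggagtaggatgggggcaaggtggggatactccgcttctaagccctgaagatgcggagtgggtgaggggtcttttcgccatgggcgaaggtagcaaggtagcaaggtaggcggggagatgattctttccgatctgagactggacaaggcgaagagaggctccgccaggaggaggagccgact
Car14: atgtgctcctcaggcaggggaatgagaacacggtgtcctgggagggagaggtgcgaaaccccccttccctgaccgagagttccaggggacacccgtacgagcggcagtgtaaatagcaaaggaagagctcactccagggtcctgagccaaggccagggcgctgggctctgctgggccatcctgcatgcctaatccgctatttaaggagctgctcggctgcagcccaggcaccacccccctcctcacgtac
The Slc9a3 promoter held 3 GC boxes, starting 71, 58 and 16 bases before the start, and 1 E box, 87 bases before it. None of the 6 motifs was found in the Car4 or Car14 window. Their GC content was 56.4% and 62.0%, against 67.6% for Slc9a3 and a median of 52.4% over the 32851 promoters of the table. Of the 8 genes 6 had an entry, with 7 starts, since Slc4a4 has 2 that gene counts do not separate. A GC box was in 4 of the 7 (Atp1b1, Glud1, Slc9a3 and 1 start of Slc4a4) and in 32.7% of all promoters. CCAAT was in 2 of the 7 (Atp1b1 and the other start of Slc4a4) and in 33.8% of all, and the E box in 1 of the 7 and in 6.02%. TATAAA (12.4% of all promoters), GTTAAT (6.43%) and CAAAGTCC (1.20%) were in 0 of the 7.

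The carbonic anhydrases of the membrane fell further than the cytosolic one. Car4 (ENSMUSG00000000805, chr11:84957786-84966044, plus strand) encodes the enzyme held by a lipid anchor on apical and basolateral membranes. Its level was 201, 274, 204 and 217 CPM in wild-type mice, 218, 180.3, 184 and 226 in healthy mice, and 11.1, 15.3, 32.2 and 24.1 in sick mice. No sick mouse came near either other group. The fall was 10.9-fold against wild-type (-3.44 ± 0.29, edgeR adjusted p = 3.20e-06) and 9.81-fold against healthy mice (-3.29 ± 0.29, edgeR adjusted p = 5.08e-06), and it was called under every alternative tried.

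Car14 (ENSMUSG00000038526, chr3:95897768-95904691, minus strand) encodes a carbonic anhydrase with a transmembrane segment, also placed on the tubule membrane. It stood at 135, 107, 181 and 89.5 CPM in wild-type mice, 106, 68.9, 66.1 and 103 in healthy mice, and 15.7, 10.7, 43.7 and 18.9 in sick mice. The sick mice were below all others, and sick mouse 3 was the highest of them. Car14 fell 5.81-fold against wild-type (-2.54 ± 0.39, edgeR adjusted p = 0.000188) and 3.91-fold against healthy mice (-1.97 ± 0.38, edgeR adjusted p = 0.00120). Without sick mouse 3 the 2 log2 fold changes were -3.09 and -2.52. Of its 2543 exon bases 445 overlap Aph1a on the other strand, with the strand setting of counting not given in the sources used here. Aph1a itself had 30.0 CPM in wild-type and 22.2 CPM in sick mice.

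Car2 (ENSMUSG00000027562, chr3:14886273-14900770, plus strand) encodes the cytosolic enzyme that supplies protons and bicarbonate inside the cell. Its level was 336, 339, 314 and 234 CPM in wild-type mice, 279, 321, 246 and 311 in healthy mice, and 131, 148, 262 and 177 in sick mice. Sick mouse 3 lay within both other groups and the other 3 sick mice below them. Car2 fell 1.70-fold against wild-type (-0.77 ± 0.21, edgeR adjusted p = 0.00805) and 1.61-fold against healthy mice (-0.69 ± 0.21, edgeR adjusted p = 0.0160). Neither fall of Car2 was called with library totals alone (-0.20 and -0.12, edgeR adjusted p = 0.387 and 0.603).

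Ratios within a library compare these enzymes with no scaling between libraries. They were 6 ratios in 3 comparisons, 18 tests, chosen after the values were seen, and 4 mice against 4 can reach an exact p of 0.0286 at the lowest. The count per kb of Car4 over Car2 was 0.736, 0.994, 0.801 and 1.14 in wild-type mice, 0.960, 0.691, 0.918 and 0.896 in healthy mice, and 0.105, 0.127, 0.152 and 0.167 in sick mice. It was 6.68-fold lower in sick than in wild-type and 6.34-fold lower than in healthy mice, with no overlap (two-sided exact permutation test, p = 0.0286 each, 0.0735 after adjustment over the 18). Car14 over Car2 was 0.0686 to 0.159 in sick mice, against 0.30 to 0.550 in wild-type and 0.204 to 0.364 in healthy mice, 3.67-fold and 2.62-fold lower with the same exact permutation p. Sick mouse 3, with the most Car2 of the sick mice, had a Car4 ratio inside the range of the other 3 and the highest Car14 ratio.

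**Figure D3:**
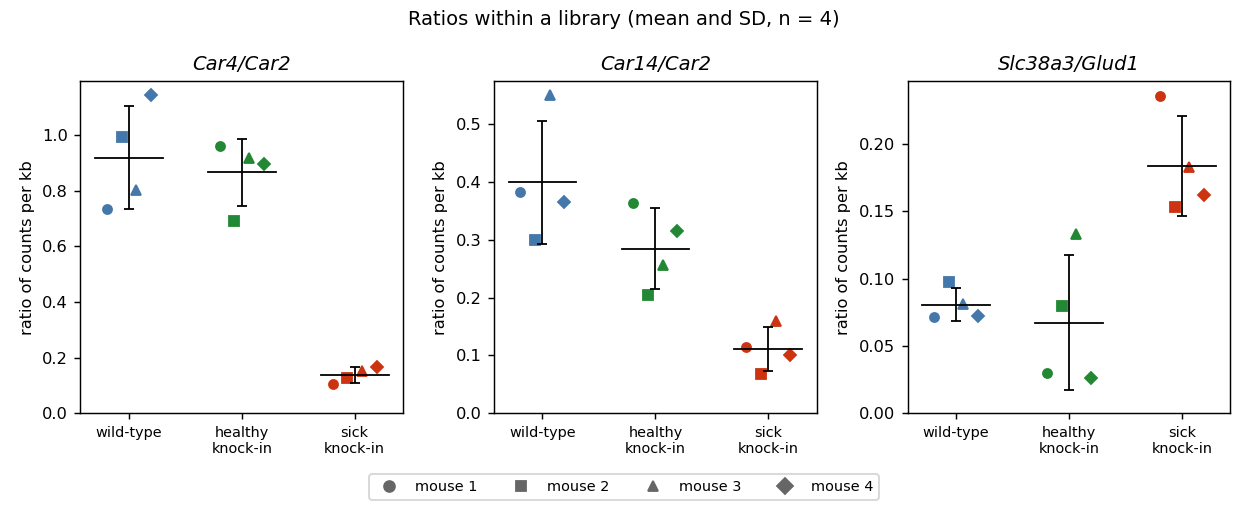
Ratios of counts per kb of exon between gene pairs in each of the 12 libraries, on linear axes from 0, 1 point per mouse, with a line at each group's mean and a bar for the SD. Car4 over Car2 and Car14 over Car2 are lower, and Slc38a3 over Glud1 higher, in all 4 sick mice than in the other 8.

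With TMM scaling the 2 members of the ammonia route had log2 fold changes of opposite sign in both comparisons of sick mice. Of these only that of Glud1 against healthy mice passed the edgeR test. Glud1 (ENSMUSG00000021794, chr14:34310727-34345265, plus strand) encodes mitochondrial glutamate dehydrogenase, which frees ammonium from glutamate. Its level was 509.9, 651, 597 and 587 CPM in wild-type mice, 627, 565, 559 and 984 in healthy mice, and 313, 448, 530.0 and 368 in sick mice. Sick mice were below all healthy mice and overlapped wild-type through sick mouse 3. Glud1 fell 1.65-fold against healthy mice (-0.72 ± 0.21, edgeR adjusted p = 0.0150) and did not pass against wild-type (-0.50 ± 0.21, edgeR adjusted p = 0.0684). With library totals alone the Glud1 log2 fold change was 0.085 against wild-type and -0.13 against healthy mice, and neither was called. Healthy mouse 4 had the highest Glud1 of the 12. In that mouse Glul (2559 CPM, against 405 to 467 in the other healthy mice) and Pck1 (8313 against 2205 to 3145) were also above the rest of its group, while its Slc38a3 was within it. Without healthy mouse 4, Glud1 passed the edgeR test in both comparisons of sick mice (adjusted p = 0.0290 against wild-type and 0.0489 against healthy mice).

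Slc38a3 (ENSMUSG00000010064, chr9:107650634-107669530, minus strand) encodes SNAT3, the basolateral transporter that brings glutamine from the blood into proximal tubule cells. It was the 1 member with a higher mean in sick than in other kidneys. Its level was 45.6, 79.7, 60.7 and 53.2 CPM in wild-type mice, 23.8, 56.3, 93.2 and 32.3 in healthy mice, and 92.5, 86.2, 121 and 74.6 in sick mice. The groups overlapped through wild-type mouse 2 and healthy mouse 3. Neither difference passed the edgeR test, at 0.65 ± 0.35 against wild-type (95% interval -0.11 to 1.40, adjusted p = 0.140) and 0.87 ± 0.35 against healthy mice (0.11 to 1.62, adjusted p = 0.0584). The call depended on the setting: with library totals alone Slc38a3 rose in both comparisons (1.23 and 1.42, edgeR adjusted p = 0.00952 and 0.00430), and without healthy mouse 3 it rose against healthy mice (1.31, edgeR adjusted p = 0.00402). Against wild-type it also rose with only the 8 libraries compared (edgeR adjusted p = 0.0316). Without wild-type mouse 2 all sick mice were above the other wild-type mice, and the value of 0.81 did not pass (edgeR adjusted p = 0.0935).

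The count per kb of Slc38a3 over Glud1 was 0.0714, 0.0977, 0.0811 and 0.0723 in wild-type mice, 0.0302, 0.0795, 0.133 and 0.0262 in healthy mice, and 0.236, 0.153, 0.183 and 0.162 in sick mice. All 4 sick mice were above the other 8, 2.26-fold over wild-type and 3.36-fold over healthy mice (exact permutation test, two-sided, p = 0.0286 each, 0.0735 adjusted over the 18). Slc38a3 over Slc4a4 was 3.38-fold higher in sick than in wild-type mice, with an overlap through wild-type mouse 2 (exact permutation p = 0.0571, 0.114 adjusted over the 18), and 5.93-fold higher than in healthy mice (exact permutation p = 0.0286, 0.0735 adjusted). Wild-type mouse 2 had 0.254, where the other wild-type mice had 0.0749 to 0.0834 and sick mice 0.249 to 0.504. Without it, the mouse that made the overlap, the first value was 4.53-fold, with no overlap.

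Atp1b1 (ENSMUSG00000026576, chr1:164437109-164458355, minus strand) encodes the main beta subunit of the kidney sodium pump, which helps the pump to reach the basolateral membrane. Its level was 2643, 2157, 2515 and 2532 CPM in wild-type mice, 2379, 2002, 2150.2 and 2508 in healthy mice, and 1172, 1692, 2146 and 992 in sick mice. All sick mice were below all wild-type mice, by a narrow margin for sick mouse 3, which lay inside the healthy range. Atp1b1 fell 1.64-fold against wild-type (-0.71 ± 0.23, edgeR adjusted p = 0.0207) and did not pass against healthy mice (-0.59 ± 0.23, 95% interval -1.09 to -0.09, edgeR adjusted p = 0.0515). The call against wild-type was lost with library totals alone (-0.13, edgeR adjusted p = 0.579), without sick mouse 1 (0.0553), without sick mouse 4 (0.0560) and with only the 8 libraries compared (0.0562). Against healthy mice Atp1b1 passed without sick mouse 3 (-0.82, edgeR adjusted p = 0.00634). Atp1b1 shares 575 of its 3081 exon bases with Nme7 on the other strand, which had 7.56 CPM in wild-type and 5.15 CPM in sick mice.

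Of the other beta subunits Atp1b2, known from nerve, rose in sick against wild-type mice by the edgeR test (21.5 ± 2.08 to 44.0 ± 5.67 CPM, 1.04 ± 0.16), and Atp1b3 did not pass (0.25 ± 0.14). The level of Atp1b2 in sick mice was 10.8 CPM per kb, far under the 487 of Atp1b1.

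Healthy knock-in and wild-type kidneys overlapped in all 8 genes, where 2.17% of all genes tested were higher and 1.80% lower with no overlap. The log2 fold changes ran from -0.57 for Car14 to 0.39 for Slc4a4, with edgeR adjusted p of 0.912 to 0.952. Leaving out each library in turn gave 0.18 to 0.51 for Slc4a4. Without wild-type mouse 2 its wild-type mean was 1390 CPM, against 1573.5 in healthy mice. The 95% intervals of Car2 (-0.53 to 0.37), Car4 (-0.71 to 0.41), Glud1 (-0.24 to 0.68) and Atp1b1 (-0.62 to 0.37) lay within 0.71 of 0. Those of Slc9a3 (-0.57 to 1.16), Car14 (-1.37 to 0.23), Slc38a3 (-0.97 to 0.53) and Slc4a4 (-0.21 to 0.98) were wider. The direction of Slc9a3 turned without wild-type mouse 2 (-0.032), that of Slc38a3 without healthy mouse 1 (0.018) and that of Glud1 without healthy mouse 4 (-0.0067).

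Genes that act beside the members in bicarbonate reclaim mostly fell in sick kidney: of 16 tested, 9 fell and 2 rose against wild-type, with a median log2 fold change of -0.90, and 9 fell and 2 rose against healthy mice. The counts against wild-type were 7 and 5 with library totals alone. With TMM scaling 25.0% of all genes tested fell and 25.9% rose against wild-type. Against healthy mice these shares were 21.9% and 24.5%, and they apply to the lists below as well. Slc9a8, an exchanger of the NHE family, fell from 256 ± 70.4 to 36.0 ± 3.12 CPM (-2.83). Its level was 360 CPM in wild-type mouse 2 and 209 to 236 in the other wild-type mice, and leaving out each library gave -2.92 to -2.63. Pdzk1 (-2.37) and Slc9a3r1 (-1.40), scaffold proteins that hold transporters at the brush border, fell as well, as did the anion exchangers Slc26a1 (-1.77) and Slc26a6 (-1.62) and the proton pump subunit Atp6v1a (-1.34). Slc4a2 (0.36), an anion exchanger found in most cells, was among those that rose.

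Of 13 other carbonic anhydrases 10 could be tested. Against wild-type 3 fell and 2 rose (median -0.06), where 25.0% of all genes tested fell and 25.9% rose. Against healthy mice 3 fell and 3 rose, where 21.9% of all genes tested fell and 24.5% rose. These counts are near the shares of all genes, so they set the list apart in neither direction. Car12 fell from 367 ± 82.3 to 122 ± 21.2 CPM (-1.59), Car9 from 10.1 ± 3.24 to 2.04 ± 0.753 (-2.34), and the mitochondrial Car5a from 1.55 ± 0.343 to 0.308 ± 0.274 (-2.26). Car13, a cytosolic form, rose from 2.97 ± 0.570 to 10.8 ± 3.44 CPM (1.87), and Car15, a membrane form, from 60.9 ± 18.5 to 174 ± 112 (1.51). Without sick mouse 2 the log2 fold change of Car5a was -3.15. Under scaling by totals alone 5 rose and 3 fell. Car3, known from fat and muscle, was called only against healthy mice (3.00 ± 0.89, edgeR adjusted p = 0.0146) and reached 778 CPM in sick mouse 4, where the summed adipocyte markers were 1105 CPM. The other sick mice had 18.0 to 122 CPM and healthy mice 16.7 to 61.5, and without sick mouse 4 the value was 1.24 and not called (edgeR adjusted p = 0.105).

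Of 19 genes listed for ammonia formation and transport, a list not drawn up by nephron segment, 14 fell and 2 rose against wild-type (median -1.0). Against healthy mice 14 fell and 2 rose. With library totals alone 9 fell and 3 rose against wild-type. Slc6a19, the apical transporter of neutral amino acids, fell from 433 ± 149.9 to 105 ± 37.2 CPM (-2.04). Slc1a1 (-1.67), the ammonia channel gene Rhbg (-1.47), the mitochondrial dicarboxylate carrier Slc25a10 (-1.46), Ogdh (-1.40) of the citric acid cycle and Pck1 (-1.22), which turns the carbon of glutamine towards glucose, fell too. Pck1, at 3457 ± 576 against 1485 ± 905 CPM, was close to the threshold (edgeR adjusted p = 0.0397) and was lost with library totals alone (0.170), with upper-quartile scaling (0.0562), without wild-type mouse 1, 3 or 4 (0.0522, 0.0667 and 0.0836) and without sick mouse 1, 2 or 4 (0.100, 0.105 and 0.0852). Slc38a1 (1.72) and Slc38a2 (1.36), glutamine transporters of the same family as Slc38a3, rose, and Slc38a2 gave 1.94 without wild-type mouse 4.

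Among the pump genes beside Atp1b1, 8 of 11 tested rose and 1 fell against wild-type (median 1.92), and 8 rose and 1 fell against healthy mice. The gene that fell, Fxyd2, encodes the gamma subunit that attends the pump in kidney, and it went from 1314 ± 585 to 434 ± 221 CPM (-1.60). Wild-type mouse 2 had 2186 CPM of Fxyd2, against 971 to 1105 in the other wild-type mice. Leaving out each library gave -2.02 to -1.25 for Fxyd2. Fxyd3 (0.831 ± 0.318 to 8.03 ± 4.21 CPM, 3.25), Fxyd5 (10.3 ± 3.48 to 55.4 ± 13.7, 2.41), Fxyd6 (2.17) and Fxyd1 (1.92) were among the 8 that rose. Under totals alone 9 rose and 1 fell. Of 11 regulators of these transporters 4 fell and 1 rose against wild-type (median -0.34), where 25.0% of all genes tested fell and 25.9% rose. Pth1r (-2.17), the receptor through which parathyroid hormone lowers NHE3 activity, and Insrr (-1.48), a sensor of alkaline pH, fell. Ahcyl1 (-0.84), whose product binds NBCe1, and the kinase Ptk2b (-0.83) fell as well. The kinase Sgk1 rose from 82.6 ± 15.8 to 233 ± 61.8 CPM (1.49). Pth1r was 964 CPM in wild-type mouse 2 and 580 to 616 in the other wild-type mice, and leaving out each library gave -2.42 to -1.98. With library totals alone Ahcyl1 and Ptk2b were not called (edgeR adjusted p = 0.0725 and 0.179), and 4 regulators rose and 2 fell.

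**Figure D4:**
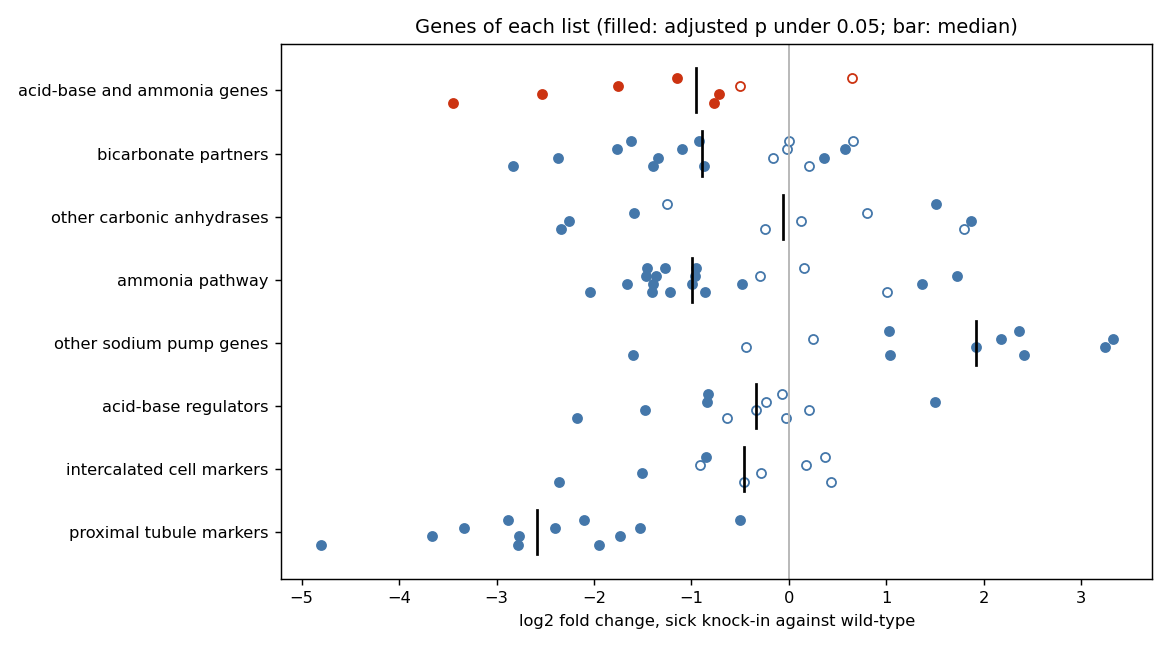
Log2 fold change of each tested gene of the 8 members and the pathway and marker lists in sick against wild-type mice, 1 point per gene with a line at each list's median. The proximal tubule markers lie around -2.58 and the pump genes around 1.92, beside -0.96 for the 8 members.

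Several marker lists of cell types also differed between sick and other mice, and not all in 1 direction. All 12 proximal tubule markers, transporters and receptors such as Slc34a1, Slc5a2 and Lrp2, fell in sick against wild-type mice (median -2.58, edgeR), and 11 of 12 fell against healthy mice. Their summed level was 2077 to 4713 CPM in sick mice, against 13618 to 47510 in wild-type and 35873 to 47465 in healthy mice, and wild-type mouse 2 was the lowest outside the sick group. Apart from that mouse, which had none, Kap was a large part of the sums outside the sick group, at 24631 to 29317 CPM in wild-type mice. In wild-type mouse 2, 7 of the 12 markers were below the other wild-type mice, 4 within their range and 1 above. Of the 8 members Car4 alone had a log2 fold change beyond the median of these markers in either comparison. Against wild-type Car14 was within its SE of that median (-2.54 ± 0.39, beside -2.58). Of 9 intercalated cell markers, which bear on Car2, 3 fell against wild-type and 4 against healthy mice. Of all genes tested 25.0% and 21.9% fell in these comparisons. Sums of the intercalated cell markers were 240 to 541 CPM in sick, 532 to 696 in wild-type and 514 to 653 in healthy mice. Markers of tubular injury (6 of 6), immune cells (5 of 5 tested) and fibroblasts (6 of 6) rose, with injury sums of 411 to 725 CPM in wild-type, 606 to 747 in healthy mice and 8644 to 14826 in sick mice. In the same order of groups, immune sums were 26.3 to 59.4, 44.5 to 55.8 and 167 to 307 CPM, and fibroblast sums 330 to 460, 317 to 709 and 2021 to 4216. Adipocyte markers rose too (4 of 4 tested), with sums of 5.54 to 49.1, 3.12 to 27.9 and 20.4 to 1105 CPM. Skeletal muscle markers were 183 to 298 CPM in healthy mice, against 0.890 to 2.30 in wild-type and 1.05 to 11.4 in sick mice. None of 5 blood cell markers passed in either comparison of sick mice, and their sums were 64.1 to 366, 63.8 to 290 and 14.5 to 207 CPM. What part these shifts have in the levels of the 8 genes was not tested.

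Pairs of members differed in how alike their levels were. Likeness was measured as the root mean square difference of centred log2 CPM over the 12 libraries, among 10864 genes tested with a mean of at least 5 CPM. Genes that change in the same direction by unlike amounts also differ by this measure. The closest pairs of members were Glud1 and Atp1b1 (0.269), Car2 and Atp1b1 (0.290) and Car2 and Glud1 (0.293). Slc9a3 and Slc4a4 differed by 0.470, and Car4 and Slc38a3 were farthest apart (2.12). Among the nearest to Atp1b1 were Ngly1 (0.168) and Cdadc1 (0.169). Car4 was most like Pecr (0.142), Acsm2 (0.182) and Amacr (0.212), genes of fatty acid metabolism. Car14 had Aspa (0.274), Pbld2 (0.287) and Tfrc (0.329), and Car2 had Rfng (0.105), Mrpl32 (0.152) and Cyb5rl (0.154). Slc9a3 was nearest to Klhl3 (0.30), Pdp2 (0.346) and Dhtkd1 (0.372), and Slc4a4 to Samd8 (0.164), Dnajc13 (0.165) and Rufy3 (0.166). Glud1 was nearest to Lrp11 (0.158), Gne (0.165) and Atg13 (0.168). Slc38a3 was nearest to Pla1a (0.233), Cd82 (0.269) and the vasopressin receptor gene Avpr2 (0.290). These values describe 12 libraries that share the difference between sick and other mice. Without wild-type mouse 2 the genes nearest to Slc9a3 were Rgl1 (0.196), St8sia1 (0.242) and Tgm1 (0.258), and those nearest to Atp1b1 were Wdr45 (0.113), Marc2 (0.126) and Tlcd1 (0.130), while Samd8, Dnajc13 and Rufy3 remained the nearest to Slc4a4. Slc9a3 and Slc4a4 then differed by 0.421.

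The authors' deposited table tests against a minimum log2 fold change of 0.5, so fewer members pass there. For sick against wild-type mice Slc9a3 (-1.64, adjusted p = 0.0145), Car4 (-3.34, 1.74e-23) and Car14 (-2.38, 1.83e-06) passed in the authors' deposited table, with DESeq2. Slc4a4 (-1.12, 0.0869), Car2 (-0.77, 0.605) and Atp1b1 (-0.72, 0.838) did not pass in the authors' deposited DESeq2 table. For sick against healthy mice Slc9a3 (-1.92, 0.00160), Slc4a4 (-1.5, 0.00158), Car4 (-3.20, 3.75e-21) and Car14 (-1.85, 0.00140) passed in the authors' deposited DESeq2 table. Car2 (-0.70) and Glud1 (-0.73, adjusted p = 0.887), which edgeR called against healthy mice, did not pass in the authors' deposited DESeq2 table. For healthy against wild-type mice the authors' deposited table passes none of the 8.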

How the data were processed

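RNA from 12 mouse kidneys was measured, 1 library per mouse in 3 groups of 4 taken from the labels. RNA was extracted with a miRvana kit and libraries were made with a Trueseq kit, per the labels' protocols. Trim Galore 0.3.7, TopHat2 2.0.11, Cufflinks, DESeq2 1.12.4 and the build GRCm38 are listed per the submitters' processing notes. The counting program, annotation release and strand setting were not given in the sources used here. Raw counts per gene were deposited for the 12 libraries, per the file headers, with the authors' log2 fold changes and adjusted p-values. The authors' statistics match tests against a minimum log2 fold change of 0.5, within 0.01 for 100% of 10890, 2919 and 10304 genes past that size in the 3 comparisons.

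The tests used edgeR 4.0.16 (R 4.3.3) on the deposited counts: filterByExpr by group, TMM, a quasi-likelihood F test with 1 mean per group over all 12 libraries, and Benjamini-Hochberg adjustment over 15589 genes at 0.05. The biological coefficient of variation common to all genes was 0.270. The SE is the log2 fold change over the square root of F, and intervals are 95%. The litter and preparation batch of each mouse were not given in the sources used here. Mouse numbers within groups were not used to pair mice. The fit was tested on simulated counts. Exon lengths and coordinates are from GENCODE vM21 (GRCm38).

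The 8 genes and the 13 other gene lists were chosen with earlier results of these data known. Named list genes had passed for sick against wild-type mice and reached 1 CPM in the higher group, up to 6 per list by size, plus those against the list's majority and pump subunits; a few genes and 1 ratio that met these rules are not reported here. Levels of different genes are compared only per kb of exon. Alternatives were other scalings, filters, dispersion, libraries, a replicate block, DESeq2 1.42.0, limma 3.58.1 (voom) and leaving out each library. Leaving out single libraries for Car3 against healthy mice, group overlap, ratios and likeness was chosen after seeing the data.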

Additional observations from a re-analysis of the deposited data

Results flagged for a closer look

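In the 24 sets of 4 libraries (8 genes in 3 groups), 3 had a mouse whose gap to its nearest neighbour took up more of the group's range than Dixon's 95% critical value, a limit that chance passes in about 1 of 20 sets. Slc9a3 in wild-type mouse 2 was 15.9 CPM, where the other wild-type mice had 78.0 to 83.0, a gap of 0.926 of the range. Slc4a4 in the same mouse was 642 CPM against 1249 to 1492, while its Car4 was 274 CPM and above the other wild-type mice. Glud1 in healthy mouse 4 was 984 CPM, where the other healthy mice had 559 to 627, a gap of 0.839 of the range. Slc9a3 in sick mouse 2 was 27.8 CPM, where the other sick mice had 15.3 to 16.6, a gap of 0.894 of the range.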

How the results depend on the processing

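The count of the 8 genes called was 6 in both comparisons of sick mice. Leaving out each library in turn gave 5 to 7 against wild-type and 6 to 7 against healthy mice, and the other 10 settings gave 4 to 7 and 5 to 8. It was 0 in healthy against wild-type mice under all 22 alternatives. Car4, Car14 and Slc9a3 passed in both comparisons of sick mice under all of them. Directions turned in 4 cases. Glud1 in sick against wild-type mice was 0.085 with library totals alone. In healthy against wild-type mice, leaving out each library gave -0.0067 to 0.32 for Glud1, -0.67 to 0.018 for Slc38a3 and -0.032 to 0.44 for Slc9a3. The cause was not tested. All genes called in healthy against wild-type mice were 49, and 81 with the DESeq2 Wald test and 86 with limma-voom, where the cause was not tested. Car14 in sick against wild-type mice was -3.16 with limma-voom. Glud1 passed against wild-type with the DESeq2 Wald test (adjusted p = 0.0396), with limma-voom (0.0343) and without sick mouse 3 (edgeR, 0.0266). Atp1b1 passed against healthy mice with DESeq2 size factors (edgeR adjusted p = 0.0452), the robust fit (0.0480), the DESeq2 Wald test (0.0130), limma-voom (0.00429) and without wild-type mouse 2 (0.0413). Slc38a3 passed against healthy mice with upper-quartile scaling (edgeR adjusted p = 0.0358) and the DESeq2 Wald test (0.0384).

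Mouse numbers gave no pairing: deviations of same-numbered mice correlated at -0.260 to 0.243 over 12 pairs. With the replicate number as a block the members called were 6, 0 and 7 for sick against wild-type, healthy against wild-type and sick against healthy mice, as Slc38a3 rose against healthy mice (1.01, edgeR adjusted p = 0.0122), and all genes called were 7480, 44 and 6809. Each of the 8 genes had at least 10.7 CPM in every library.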
